A study of Sus scrofa with 12 samples.

Results

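The genes described here encode the enzymes that write and erase lysine methylation on histones, with the related PRDM family. They were taken by symbol from the Sscrofa11.1 gene table: protein-coding genes named KDM, KMT, SETD or PRDM with a number, and EZH1, EZH2, EHMT1, EHMT2, SUV39H1, SUV39H2, NSD1, NSD2, NSD3 and DOT1L. The rule gave 57 genes, of which 56 lie on the assembled chromosomes, among 19550 protein-coding genes there. EHMT1 lies on an unplaced sequence and has no value here. The 56 genes comprise 16 KDM genes, 26 methyltransferase genes outside PRDM and 14 PRDM genes.

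The data are C/EBP-β chromatin immunoprecipitation sequencing (ChIP-seq) of endometrium, the lining of the uterus, from pregnant pigs. One group of 3 libraries was collected on day 12 of pregnancy and another of 3 on day 15, both from tissue fixed with formaldehyde and with the same antibody. Input samples, 6 in number, are not analysed here. No label gives breed, age or number of animals, or says that replicates are separate animals, so a p-value reflects only the scatter of these libraries, possibly technical. Whole endometrium holds several cell types.

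Methylation of lysines on histones H3 and H4 marks chromatin states. In general, H3K4 methylation goes with promoters and enhancers, H3K36 methylation with transcribed gene bodies, and H3K9 and H3K27 methylation with silent chromatin. Methyltransferases, most with a SET domain, add the marks. Demethylases of the KDM1 type (amine oxidases) and of the JmjC type (iron-dependent oxygenases) remove them. Most PRDM proteins carry a SET-related domain and zinc fingers and act as sequence-specific regulators of cell fate. The uterine stroma of mice needs C/EBP-β, a bZIP transcription factor, to decidualise.

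Each library is a list of peak summits, 1 bp wide, with a score from the authors on a −log10 scale of p or q. It is used only to rank summits within a list, as a percentile in which 100 is the highest. The lists held 6557, 33294 and 57728 summits on day 12 (replicates 1 to 3) and 70152, 16529 and 11960 on day 15. The files give no read counts, so depth is unknown. The lists differ in more than length. Peak names carry a directory path in day 12 replicate 1 and day 15 replicates 2 and 3 (set A) and none in the other 3 (set B), and day 15 replicates 2 and 3 share a sample code. Nothing in the peak names of day 15 replicate 3 names the protein, so its identity rests on the labels. Without that library 39 members were bound on day 15 as defined below, as with it, and 22 rather than 21 had a summit in every library. A summit shows enrichment in the ChIP and measures no RNA, so the tissue label could not be checked by expression. Of marker genes, 3 of 6 epithelial, 3 of 5 stromal, 3 of 4 smooth muscle, 1 of 3 endothelial and 2 of 4 immune genes had a summit near an end in at least 2 of 3 day 12 libraries, and 3, 5, 4, 1 and 2 on day 15.

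Genes of histone methylation enzymes had summits near their ends more often than protein-coding genes as a whole, in every library. The table gives no strand, so a summit within 5 kb of either end of a gene was counted. On day 12, 22, 33 and 42 of the 56 genes had one in replicates 1 to 3 (39.3%, 58.9% and 75%), beside 17.2%, 38.4% and 54.1% of all protein-coding genes. On day 15 the counts were 45, 41 and 38 (80.4%, 73.2% and 67.9%), beside 64.8%, 44.6% and 37.6%. The share was 1.24 to 2.28 times that of all genes, and the ratio was lowest in the longest list and highest in the shortest.

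**Figure D1:**
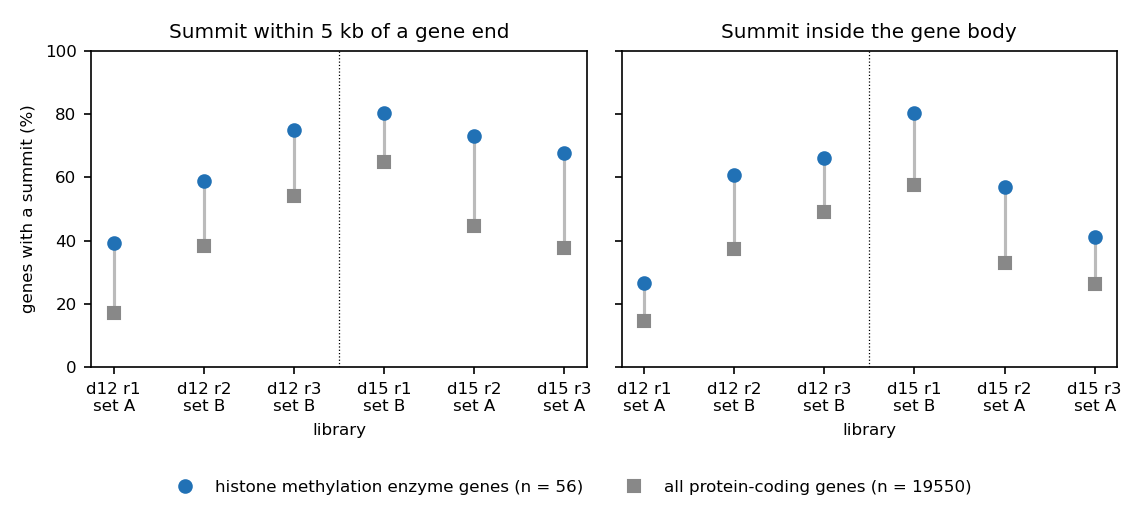
Share of genes with a summit within 5 kb of either end (left) and inside the gene body (right), in percent, for the 56 histone methylation enzyme genes (circles) and all 19550 protein-coding genes (squares) in each library (d12 r1 is day 12 replicate 1; set A and B as in the text). The circle lies above the square in all 6 libraries in both panels, from 39.3% against 17.2% in day 12 replicate 1 to 80.4% against 64.8% in day 15 replicate 1 near gene ends.

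Counting a gene as bound on a day when at least 2 of 3 libraries had a summit near an end, day 12 had 32 bound genes of 56, or 57.1% (38.1% of all genes), and day 15 had 39, or 69.6% (46.3%). All 6 libraries had one at 21 genes, or 37.5%, against 13.1% of all genes. No library had one at 7 genes, or 12.5%, against 29.5% of all. The median gene of the group had a summit in 5 libraries and the median protein-coding gene in 3. The difference was of like size among genes of at least 10 kb. There, 60.8% of 51 members and 41.7% of all 13214 such genes were bound on the first day, and 74.5% and 49.9% on day 15. This floor does not match the lengths of members and other genes, so an effect of length was not tested. For 40 of the 56 genes (71.4%, against 64.7% of all genes) another protein-coding gene had an end within 10 kb, and a summit then can count for both. When each summit counted only for the gene with the nearest end, 27 and 38 members were bound and 14 in all 6 libraries. Under this rule the shares were 48.2%, 67.9% and 25%, against 30.8%, 37.3% and 8.62% of all genes. DOT1L, KDM6B, KMT2B, KMT2E, SETD1B, SETD2 and SETD5 then left the group with a summit in all 6 libraries.

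The counts moved with list length and with the set, which cannot be told apart, since set A holds the 3 shortest full lists. With the 6557 highest-scoring summits of every library, 22, 8 and 6 members had a summit near an end on day 12 and 8, 28 and 29 on day 15. High counts thus came from the 3 set A libraries and low ones from the 3 set B libraries, on both days. All genes showed the same order. In set A their shares were 17.2%, 24.4% and 24.3%, against 39.3%, 50% and 51.8% of members. In set B they were 9.44%, 9.67% and 10.5%, against 14.3%, 10.7% and 14.3% of members. The excess of members over all genes was thus smaller in set B, and least in day 12 replicate 3. Under these equal lists 8 members were bound on day 12 (14.3%, against 9.68% of all genes) and 25 on day 15 (44.6%, against 20.3%). In all 6 libraries there were 4 (7.14%, against 3.53%).

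**Figure D2:**
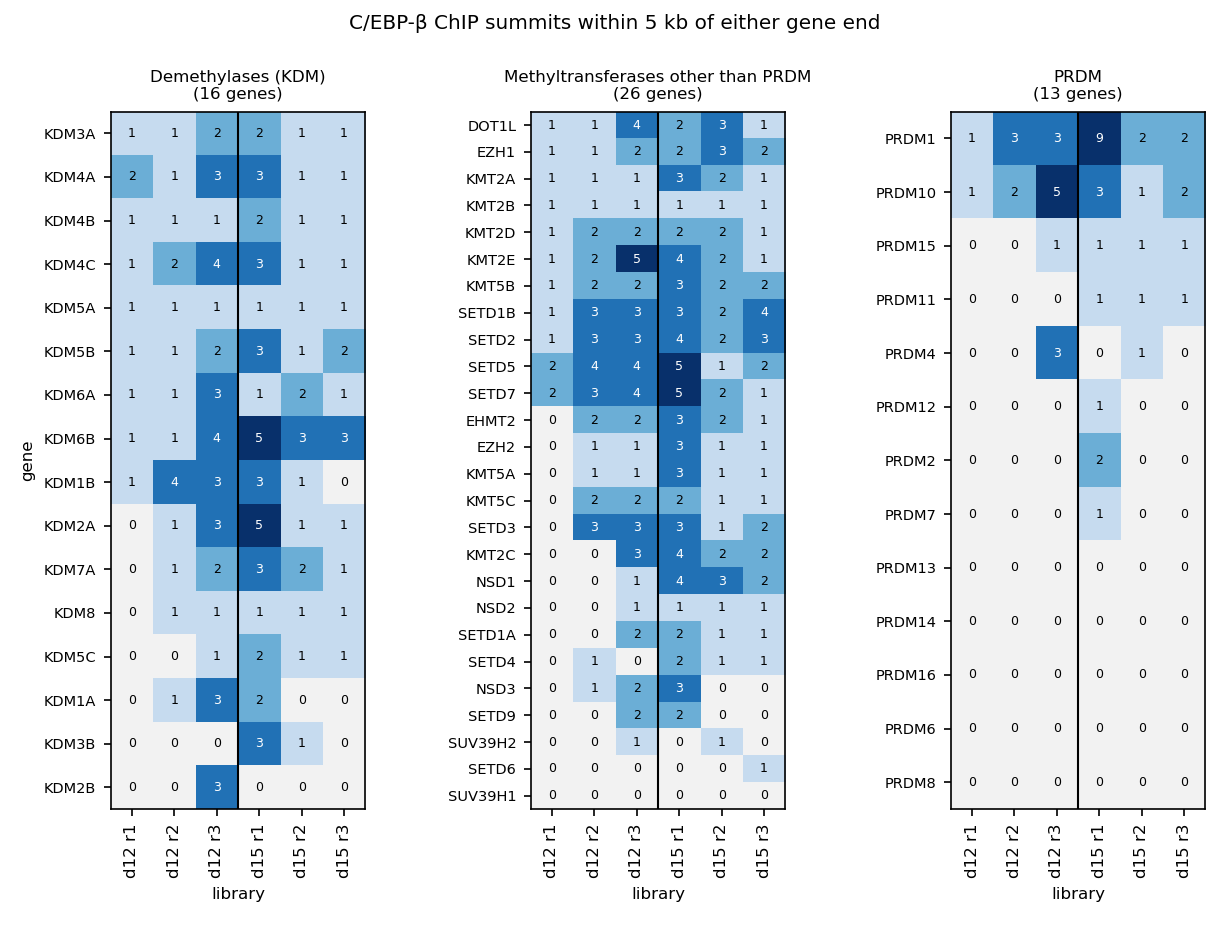
Number of summits within 5 kb of either end of each gene (rows) in each library (columns, d12 r1 is day 12 replicate 1; the black line parts the days), for 16 KDM genes, 26 other methyltransferase genes and 13 of the 14 PRDM genes. The upper rows, with a summit in all 6 libraries, hold 8 KDM, 11 methyltransferase and 2 PRDM genes, and 5 of the 6 rows of zeros are PRDM genes.

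The classes differed in these counts, and the difference was not tested. Beside 38.1% and 46.3% of all genes, day 12 had 13 bound among 16 KDM genes (81.3%) and day 15 had 14 (87.5%). Among 26 methyltransferase genes outside PRDM, 17 and 21 were bound (65.4% and 80.8%). Among 14 PRDM genes, 2 and 4 were (14.3% and 28.6%), below the shares of all genes. In single libraries, 2, 2 and 4 PRDM genes had a summit near an end on day 12 and 7, 5 and 4 on day 15, against 9, 13 and 15 and then 15, 14 and 12 KDM genes.

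**Figure D3:**
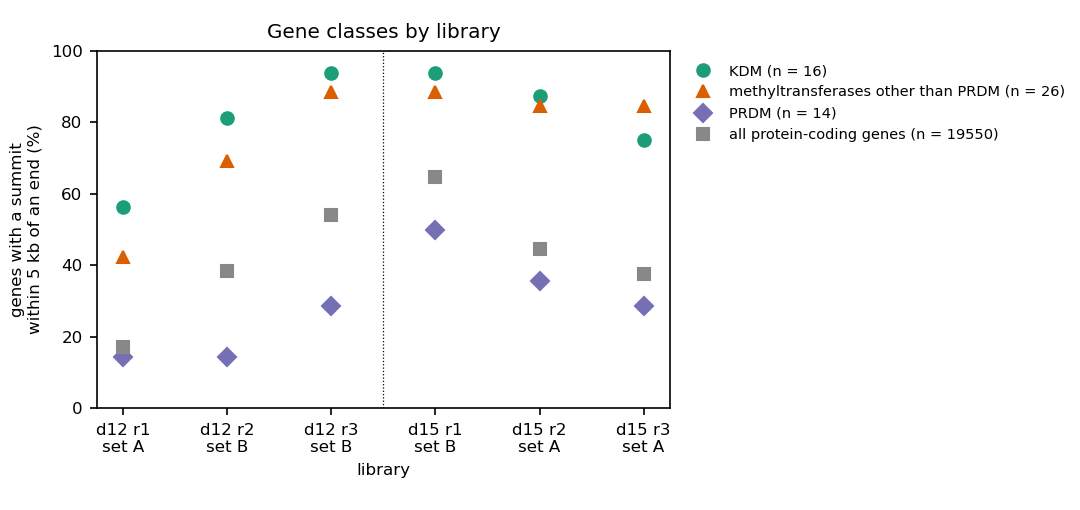
Share of genes with a summit within 5 kb of either end, in percent, in each library (d12 r1 is day 12 replicate 1), for KDM genes, methyltransferase genes outside PRDM, PRDM genes and all protein-coding genes. KDM and methyltransferase genes lie above all protein-coding genes in every library, and PRDM genes lie below them (2 of 14 genes against 17.2% in day 12 replicate 1, the closest pair).

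Of the genes classed here with H3K4 methyltransferases, KMT2E among them, 6 of 8 were bound on day 12 and 8 of 8 on day 15. KMT2A to KMT2D encode the catalytic subunits of MLL-type COMPASS complexes, and KMT2E a related protein with little known catalytic activity. KMT2B had exactly 1 summit near an end in each of the 6 libraries, all within one site at chr6:45146329-45146652, 373 bp outside its end with the lower coordinate, and none inside the gene. IGFLR1, LIN37, PSENEN, U2AF1L4 and ZBTB32 also have ends within 10 kb of it. KMT2A had 1, 1 and 1 summits on day 12 and 3, 2 and 1 on day 15, with a site shared by all 6 libraries at chr9:45743407-45743460, 133 bp outside an end. KMT2D had 1, 2 and 2 and then 2, 2 and 1, with a shared site inside the gene 431 bp from an end. These 3 genes thus carried a summit close to an end in all 6 libraries with the full lists. With equal lists each kept one only in day 12 replicate 1 and day 15 replicates 2 and 3, the libraries of set A. The split by day is thus also a split by set.

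KMT2C, which encodes an enhancer-associated H3K4 monomethyltransferase, had 0, 0 and 3 summits near an end on day 12 and 4, 2 and 2 on day 15. Its site at the end with the lower coordinate (chr18:4993108-4993395) had summits from day 12 replicate 3 and all 3 day 15 libraries, at a mean percentile of 77.3. SETD1A, a COMPASS subunit that methylates H3K4 at promoters, had 0, 0 and 2 and then 2, 1 and 1. Its paralogue SETD1B had 1, 3 and 3 and then 3, 2 and 4, but only 3 libraries had one nearer to SETD1B than to another gene. SETD7, a monomethyltransferase of H3K4 and of several other proteins, had 2, 3 and 4 and then 5, 2 and 1. Its site at chr8:87479848-87480022, inside the gene 1669 bp from an end, had summits in all 6 libraries and kept them with equal lists.

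Both the enzymes and the erasers of H3K27 methylation had summits near their ends. EZH1 and EZH2 encode the alternative catalytic subunits of Polycomb repressive complex PRC2. EZH1 had 1, 1 and 2 summits on day 12 and 2, 3 and 2 on day 15, and a site at chr12:20107437-20107639, 206 bp outside an end, that held in all 6 libraries with equal lists as well. EZH2 had 0, 1 and 1 and then 3, 1 and 1. The nearest EZH2 summit lay 1370 and 1438 bp from an end in day 12 replicates 2 and 3, and 263, 35 and 53 bp in the day 15 libraries. EZH1 thus had the same position in every library. At EZH2, day 15 replicate 1 shared the site of the day 12 libraries, inside the gene, and the other day 15 libraries did not.

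KDM6A and KDM6B encode the H3K27 demethylases, KDM6A on the X chromosome. KDM6A had 1, 1 and 3 summits near an end on day 12 and 1, 2 and 1 on day 15, with a shared site at chrX:39953458-39953692, 189 bp outside an end, at a mean percentile of 79.1. KDM6B, an inducible gene in inflammation, had 1, 1 and 4 and then 5, 3 and 3. The site shared by all 6 libraries near KDM6B lay 3409 bp beyond its end with the higher coordinate, in a stretch with DNAH2, LOC110255906, NAA38 and TMEM88, whose ends lie within 10 kb. Only 1 library had a summit nearer to an end of KDM6B than to that of another gene. The bound state of KDM6B near its ends therefore rests on sites that lie closer to its neighbours.

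Day 12 had 2 and day 15 had 3 bound genes among the 4 of H3K36 methyltransferases. SETD2, the enzyme of H3K36 trimethylation, had 1, 3 and 3 summits on day 12 and 4, 2 and 3 on day 15. A site in all 6 libraries lay 1851 bp outside an end. In day 12 replicate 1 its summit was the only one near an end of SETD2, and it lay nearer to another gene. NSD1 and NSD2, which dimethylate H3K36, both had a summit near an end in a single day 12 library and in the 3 libraries of day 15. NSD1 had 0, 0 and 1 and then 4, 3 and 2, and NSD2 had 0, 0 and 1 and then 1, 1 and 1. NSD2 summits of day 15 lay 746, 333 and 525 bp from one end, and the single summit of day 12 lay 212 bp from the other. NSD3, a further member of that family, had 0, 1 and 2 on day 12 and 3, 0 and 0 on day 15, all 3 libraries being of set B. The H3K36 demethylase gene KDM2A had 0, 1 and 3 and then 5, 1 and 1. Its paralogue KDM2B had summits near an end only in day 12 replicate 3, where there were 3, and had summits in the gene body in 5 libraries.

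Of 3 measured H3K9 methyltransferase genes 1 was bound on each day, a share (33.3%) near that of all genes on day 12. EHMT2 (G9a) had 0, 2 and 2 summits near an end on day 12 and 3, 2 and 1 on day 15, but those of day 12 were all nearer to another gene. SUV39H1, on the X chromosome, had none in any library within 5 kb or in its body. SUV39H2 had 1 in day 12 replicate 3 and 1 in day 15 replicate 2, at 981 and 54 bp from an end. Among genes of H3K9 demethylases, 5 of 6 were bound on day 12 and 6 of 6 on day 15.

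KDM3A, an H3K9 demethylase gene, had one of the most constant sites of the group. It had 1, 1 and 2 summits near an end on day 12 and 2, 1 and 1 on day 15, and the best of each library lay 271 to 309 bp outside its end with the higher coordinate (chr3:58355271-58355309). The score percentiles of these were 58.5, 86.9 and 98.8 on day 12 and 98.7, 97.4 and 95.4 on day 15. The site kept all 6 libraries with equal lists. KDM3B, its paralogue, had 0 in the 3 day 12 libraries and 3, 1 and 0 on day 15, so the paralogues did not share the pattern. KDM4A, KDM4B and KDM4C, which act on H3K9 and H3K36, each had a summit in all 6 libraries, and those of KDM4B and KDM4C included a shared site 197 and 4 bp outside an end. KDM7A had 0, 1 and 2 and then 3, 2 and 1.

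Of H3K4 demethylase genes, KDM5A and KDM5B had summits in all 6 libraries. KDM5A had exactly 1 near an end in each, within 53 bp at chr5:67716016-67716068, and its percentiles were 56.6, 60.1 and 81 on day 12 and 95.6, 98.6 and 97.4 on day 15. Every day 15 rank was above every day 12 rank. The lists differ in length and set, and a change between days was not tested. The X-linked paralogue KDM5C had 0, 0 and 1 and then 2, 1 and 1, each within 137 bp of one end at its closest. KDM1A (LSD1) had 0, 1 and 3 and then 2, 0 and 0, and all 3 libraries with a summit belong to set B. KDM1B had 1, 4 and 3 and then 3, 1 and 0.

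DOT1L, the H3K79 methyltransferase gene, had 1, 1 and 4 summits on day 12 and 2, 3 and 1 on day 15, and its shared site lay 2975 bp beyond an end, where PLEKHJ1 and SF3A2 are neighbours. The H4K20 methyltransferase genes KMT5A, KMT5B and KMT5C were bound on both days. KMT5B had the highest mean percentile of the group, 91.1. It had 1, 2 and 2 and then 3, 2 and 2, with a site at chr2:4710554-4710611, inside the gene 72 bp from an end. KMT5A had 0, 1 and 1 and then 3, 1 and 1, and KMT5C had 0, 2 and 2 and then 2, 1 and 1.

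The remaining SETD and KDM genes encode enzymes whose main substrates are not all histones. SETD5 had 2, 4 and 4 summits on day 12 and 5, 1 and 2 on day 15, and SETD3, an actin histidine methyltransferase gene, had 0, 3 and 3 and then 3, 1 and 2. SETD4 had 0, 1 and 0 and then 2, 1 and 1, and SETD9 had 0, 0 and 2 and then 2, 0 and 0. SETD6, which encodes a methyltransferase of the NF-κB subunit RELA, had 1 summit in all, in day 15 replicate 3. KDM8 had 0, 1 and 1 and then 1, 1 and 1. SETD5 was thus the one with a summit in every library, though in 2 of them all were nearer to another gene.

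Of 14 PRDM genes, 6 had no summit near an end in any library. PRDM1 (Blimp-1), a repressor that drives terminal differentiation of plasma cells and other lineages, had 1, 3 and 3 on day 12 and 9, 2 and 2 on day 15. PRDM10 had 1, 2 and 5 and then 3, 1 and 2, close to its end with the higher coordinate. No other PRDM gene had a summit in all 6 libraries. PRDM6, PRDM8, PRDM13, PRDM14 and PRDM16 were among those with none near an end, and PRDM8, PRDM13 and PRDM14 none in the body either. With SUV39H1 these 3 were the only genes of the group with no summit at all, 4 of 56 against 22.4% of all genes. PRDM2 had summits near an end only in day 15 replicate 1, PRDM7 and PRDM12 likewise, and PRDM4 had 3 in day 12 replicate 3 and 1 in day 15 replicate 2.

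Gene bodies of the group also held a summit more often than those of all genes, in every library. The genes are long, with a median of 60.1 kb against 20.7 kb for all protein-coding genes, and longer genes have more room for a summit. A summit lay inside 15, 34 and 37 genes in the day 12 libraries and 45, 32 and 23 in the day 15 libraries, beside 14.5%, 37.4%, 49%, 57.5%, 33.1% and 26.4% of all genes. At least 2 of 3 libraries had one in 31 genes (55.4%) on day 12, against 36.4% of all genes, and in 31 on day 15, against 35.4%. Per 100 kb of gene body, the members held 0.498, 2.13 and 3.64 summits on day 12 and 4.32, 1.22 and 0.905 on day 15, which is 1.21 to 1.60 times the density in all protein-coding genes. All 6 libraries had a body summit in 13 genes, or 23.2%, against 8.79% of all.

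KMT2C and KMT2E stood out by number. KMT2C, 286 kb long, held 2, 9 and 20 body summits on day 12 and 22, 3 and 2 on day 15, or 58 in all. KMT2E, 131 kb long, held 4, 9 and 15 and then 17, 6 and 5, or 56 in all. Only 153 and 175 of the 19550 genes held more. Per 100 kb of gene they ranked lower, KMT2C at 4843 (20.2 summits) and KMT2E at 2096 (42.8). Their counts followed the length of the lists, and most joined sites came from few libraries. Joining summits that lay within 200 bp of each other, whatever the library, gave 32 sites in or near KMT2C, 17 of them from 1 library, and 28 at KMT2E, 12 from 1 library. Each gene had 1 site in all 6 libraries, at chr18:5196540-5196656, 83.1 kb inside KMT2C, and at chr9:104910579-104910765, 34.4 kb inside KMT2E. The KMT2E site had a mean percentile of 88.9.

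By density summed over the 6 libraries, in which long lists weigh most, PRDM1 and KDM6B came first, with 118 and 114 summits per 100 kb, ahead of KMT2E (42.8), SETD9 (36.6) and SETD7 (30.7). PRDM1 held 2, 5 and 6 body summits on day 12 and 14, 2 and 2 on day 15, and 15 of its 20 sites came from 1 library. The order was not the same in each library: in day 12 replicate 2, KDM6B (4.57 per 100 kb) lay below KDM1A (7.30), KMT2E (6.88) and SETD7 (6.13). KDM6B held 1, 1 and 6 and then 6, 5 and 6, and 7 of its 13 sites came from at least 3 libraries. The site of all 6 libraries is among these and lies outside KDM6B, and no site inside the gene had more than 3 libraries. In PRDM1, 4 of 20 sites came from at least 3 libraries, and those inside the gene at chr1:72311674-72311868 and chr1:72327430-72327485 had 5 and 4. NSD3 and PRDM2 held 30 and 25 body summits and had them in all 6 libraries, although their ends had summits in 3 libraries and 1. KMT2B, KMT5C, NSD2, SETD6 and SUV39H2 showed the reverse, with summits near an end in at least 1 library and none in the body.

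**Figure D4:**
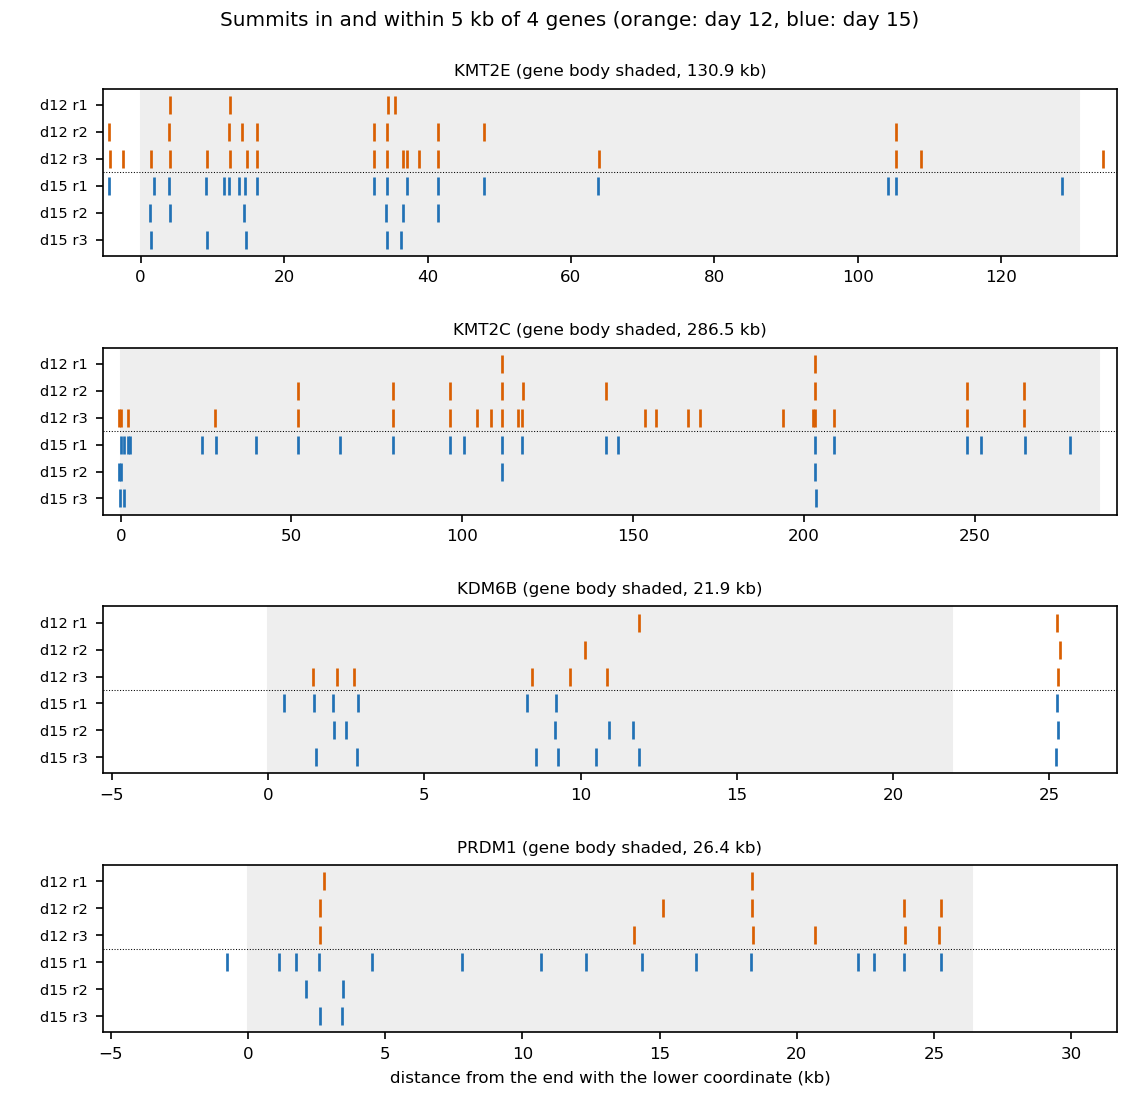
Positions of summits (ticks) in and within 5 kb of KMT2E, KMT2C, KDM6B and PRDM1, in kb from the gene end with the lower coordinate, by library (d12 r1 is day 12 replicate 1; orange day 12, blue day 15; gene body shaded). Ticks line up across all 6 rows 34.4 kb into KMT2E, 83.1 kb before the far end of KMT2C and 3.4 kb beyond KDM6B, while in PRDM1 most of the 14 body ticks of day 15 replicate 1 have no counterpart.

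In all, 376 joined sites lay in or within 5 kb of the 56 genes, of which 180 came from 1 library and 18 (4.79%) from all 6, against 2.73% of all 99058 sites. These 18 sites belonged to 18 different genes. Of them, 10 lay within 1 kb of an end, 15 within 5 kb, and 7 inside the gene. With equal lists 3 of the 18 were still in all 6 libraries, those of EZH1, KDM3A and SETD7. Near ends, the closest summit lay at a median of 189 to 461 bp per library, beside 189 to 790 bp for all genes with such a summit.

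Between days, differences leaned to day 15. More day 15 than day 12 libraries had a summit near an end at 21 members, against 35.3% of all genes, and the reverse held for 4 members (KDM1A, KDM1B, KDM2B and NSD3), against 11.2% of all genes. The numbers were equal at 31. At 9 members, or 16.1%, day 15 led by at least 2 libraries (KDM3B, KDM5C, KMT2C, NSD1, NSD2, PRDM11, PRDM15, SETD1A and SETD4), against 11.8% of all genes, and at 0 members did day 12 lead by that much (1.58% of all). The shares lie near the background. At 6 of these 9, the single day 12 library with a summit was replicate 3, the longest of that day. Of the 9 members with a summit in 5 libraries, 8 lacked it only in day 12 replicate 1, the shortest list.

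PRDM11 was the one gene whose ends had a summit in the 3 libraries of day 15 and in 0 of day 12 (2.83% of all genes), and 0 members had the reverse (0.0307%). Its 3 summits lay 696, 934 and 932 bp from an end, inside the gene, at percentiles of 72.7, 2.35 and 63.8. The score of day 15 replicate 2 was 1.93, so the pattern was lost with a score of at least 2. Its two-sided exact permutation p was 0.1, the smallest that 3 against 3 libraries allow, and 1 after Benjamini-Hochberg adjustment over 19550 genes. The same test gave 0 genes with an adjusted p under 0.05 and 0 with an unadjusted p under 0.05, which the design cannot reach. When a summit counted only for the nearest gene end, EHMT2, NSD1 and NSD2 joined PRDM11, against 2.46% of all genes.

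In gene bodies, EHMT2, PRDM11 and SETD4 showed the same pattern (1.63% of all genes), and 0 members had the reverse (0.046%). These body summits also lay within 5 kb of an end, so they are not separate from the counts near ends. In EHMT2, those of day 15 replicates 2 and 3 lay 0 and 19 bp from an end, and that of replicate 1 lay 3886 bp from it. At the level of joined sites, 6 of 376 (1.60%) had summits from every day 15 library and from none of day 12, against 0.9% of all sites, and 0 had the reverse, against 0.139%. They lay at KDM2A (chr2:5357358-5357547), KDM6B (chr12:53096242-53096338), NSD1 (chr2:80646289-80646512), NSD3 (chr15:48136373-48136553), PRDM2 (chr6:73172384-73172641) and SETD4 (chr13:199588860-199588901). The mean percentiles of these sites were 42.9 to 53.7, in the middle of the lists. With equal lists none of the 6 was left in 3 of 3 day 15 libraries. In day 15 replicate 1 that cut keeps only scores of at least 41.8. For sites of middle rank it therefore cannot show whether the day pattern holds.

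The number of members with a summit near an end was 32.3 ± 10 on day 12 and 41.3 ± 3.51 on day 15 (SD, n = 3 libraries each). The lowest day 15 library (38) lay below the highest day 12 library (42), so the days overlapped. Within set A the number was 22 on day 12 and 41 and 38 on day 15, and within set B it was 33 and 42 on day 12 and 45 on day 15. All protein-coding genes moved in the same way, from 36.6% ± 18.5 to 49% ± 14.1 (SD, n = 3 each). For gene bodies the numbers were 28.7 ± 11.9 and 33.3 ± 11.1 (SD, n = 3 each). No test was made over the members, since they are not replicates.

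Partners of the enzymes in their complexes were bound in shares of 62.5% on day 12 and 85% on day 15, beside 57.1% and 69.6% of the enzymes and the 38.1% and 46.3% of all genes. These are 25 and 34 of the 40 genes found in the table, of 42 listed. All 6 libraries had a summit at 10 of the 40, beside 37.5% of the enzymes and 13.1% of all genes. For PRC2 the numbers were 6 and 8 of 9, and RBBP4 and PHF1 had summits in all 6 libraries. AEBP2, a PRC2 cofactor, had none on day 12 and a summit in the 3 libraries of day 15. It was the only 1 of the 40 partners with this pattern, which 2.83% of all genes showed. For COMPASS they were 7 and 10 of 12, with WDR5, the shared scaffold, in all 6 and DPY30 in 0. Partners of KDM1A had 3 and 4 of 6, of DOT1L 4 and 6 of 6, and readers and cofactors of H3K9 methylation 5 and 6 of 7. Of related enzymes outside the rule, 15 of 30 were bound on the earlier day and 20 on the later. These were 4 and 5 of 9 SET domain genes, 7 and 8 of 13 JmjC genes, and 4 and 7 of 8 arginine methyltransferase genes.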

How the data were processed

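C/EBP-β ChIP-seq summit lists of 6 pig endometrium libraries were analysed. The submitters' processing notes name MACS2 2.1.2, SAMtools 1.9, Bowtie2 2.3.5.1 and the genome susScr11. Threshold, input use, pooling and duplicate removal: not given in the sources used here. The deposited scores are −log10 values of either p or q, and no header says which. Depth is unknown, and no interval is given.

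Summits on 18 autosomes, X and Y were used (196220), with positions counted from 1. Genes were placed with RefSeq's Sscrofa11.1 table (30371 genes), which comes without strand or sequence, so no start of transcription, motif or sequence was analysed. Python 3.11.15, pandas 2.3.3 and NumPy 2.4.6 were used, and the counting was tested on simulated summits. Days were compared per gene with a two-sided exact permutation test over libraries, with Benjamini-Hochberg adjustment over all genes. Members, lists and tests were chosen with earlier results of these data known. Named were members that differed by at least 2 libraries between days, the 10 highest-ranked in all 6 libraries, paralogue sets, and the top 5 by body summits and by body density. The other members were added to account for all of them. The values of 1 member, which stays in all counts, are not reported here. Site coordinates follow the files, and distances are from the midpoint of a site.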

Additional observations from a re-analysis of the deposited data

Results flagged for a closer look

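Outside the assembled chromosomes, the 6 lists held 2121 summits, a signal that no comparison above uses, with 63, 312 and 620 in the day 12 libraries and 728, 221 and 177 in the day 15 libraries. EHMT1 lies on such a sequence, and its table entry does not name which one.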

How the results depend on the processing

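Of the alternatives, the start of transcription alone was not run, since no strand was given. Members bound near an end on day 12 and day 15 (32 and 39) became 14 and 25 with a score of at least 10. These were 25% and 44.6% of members, against 14% and 20.3% of all genes. Equal lists gave 8 and 25, with the shares given above. A window of 50 kb gave 49 on day 12, or 87.5% against 80% of all genes. The number in all 6 libraries (21) became 12 with a score of at least 5 and 2 with at least 10. It became 4 with equal lists, 12 with a window of 1 kb and 35 with 50 kb. In that order the shares were 21.4%, 3.57%, 7.14%, 21.4% and 62.5%, against 8.45%, 2.95%, 3.53%, 7.59% and 40.5% of all genes. Body counts (31 and 31) became 15 and 15 with a score of at least 10, and 9 and 12 with equal lists. On day 12 the count was 15 with all 3 libraries required. In that order the shares were 26.8%, 26.8%, 16.1%, 21.4% and 26.8%, against 16.8%, 13.6%, 11.8%, 13.7% and 12.7% of all genes. Genes of day 15 only (1) became 0 with a score of at least 2, 3 with at least 5 and 4 with at least 10. They became 0 with equal lists, 3 with 1 kb, 0 with 50 kb and 4 with the nearest gene end only. The nearest-end rule was chosen after seeing the data. In that order the shares of all genes were 2.87%, 3.16%, 2.6%, 0.292%, 3.9%, 0.517% and 2.46%. Leaving out each library in turn gave 22 to 32 and 37 to 39 near ends, 21 to 29 in all libraries, 15 to 31 and 23 to 31 in bodies (15 without day 12 replicate 2 or 3), and 1 to 7 for day 15 only (7 without day 12 replicate 3, 2 without day 12 replicate 2 or day 15 replicate 3). Over all genes these ranges were 15% to 38.1% and 34.5% to 46.3% near ends, and 13.1% to 23.1% in all libraries. In bodies they were 12.9% to 36.4% and 21.4% to 35.4%, and for day 15 only 3.19% to 8.04%. Leaving out day 12 replicate 2 or 3 leaves the shortest list as one of the 2 that must both have a summit. The cause of these changes was not tested. Genes of day 12 only stayed at 0 in all 14 alternatives run for it, against 0.00512% to 0.885% of all genes. With the replicate number as a replicate block (exact sign flips, smallest p = 0.25), 0 of 19550 genes passed an adjusted p of 0.05, as without it and within sets (exact permutation, smallest p = 0.111). Deviations from the day mean had correlations over genes of -0.26, 0.00068 and -0.20 for same-numbered libraries. Differently numbered ones had -0.081 to 0.24. The lists differ in length, which enters these values, so they cannot show whether same-numbered libraries are paired.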
